A study of Mus musculus with 11 samples.

Results

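Cytochrome P450 (P450) enzymes of families 1 to 4 were followed in whole mouse liver after a constitutively active form of YAP, the transcriptional co-activator at the end of the Hippo pathway, was switched on in hepatocytes. The members were the genes whose symbol is Cyp, a family number from 1 to 4, a subfamily letter and a gene number. Of 20893 genes in the table, 75 had such a symbol, and 59 of these, in 18 subfamilies, reached at least 0.5 eRPKM (exonic reads per kilobase of a gene, which the authors scaled to library size) in at least 3 of 11 libraries. The symbol rule and the level filter used no expression change, but the members were chosen with earlier results of these data known. All 11 livers came from C57BL/6 mice on food with doxycycline, the drug that lets the reverse transactivator rtTA drive genes behind a tet promoter, so the controls received the drug too. The 4 controls carried ROSA26-rtTA-IRES-EGFP, were labelled WT in place of tetYAP, and were listed with 7 days of doxycycline. The 4 livers of the 3-day group and the 3 livers of the 7-day group carried ROSA26-rtTA-IRES-EGFP and tetYAP and received doxycycline for 3 and 7 days, respectively. In this cross Alb-CRE, which acts in cells that use the albumin promoter, removes a stop in front of rtTA, so the transgene was confined by design to the hepatocyte lineage, whereas the RNA was taken from the whole organ. The labels do not say whether the controls carried Alb-CRE, and ages and sexes were not given in the sources used here.

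P450 enzymes are heme proteins of the endoplasmic reticulum that insert an oxygen atom into their substrates with electrons passed on by the reductase Por. Families 1 to 3 are best known for the oxidation of drugs, toxins and steroids, and family 4 for the hydroxylation of fatty acids and eicosanoids at the end of the chain. In mouse liver many of these genes are held by hepatocytes around the central vein, many are induced through the receptors Ahr, Nr1i2 (PXR), Nr1i3 (CAR) and Ppara, and a subset differs strongly between males and females through the pattern of growth hormone release.

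The libraries held between 1236177 and 5474757 reads on genes in the control group, between 2641965 and 3663799 at 3 days and between 5292555 and 5921243 at 7 days, so that every 7-day library was deeper than all others but control liver 2. Reads of some abundant genes did not grow in step with depth. Alb had between 2417 and 3102 reads in every library, a 1.28-fold range over a 4.79-fold range of depth, so that its eRPKM fell as depth rose. Of the 59 members 38 reached at least 300 reads per kilobase in some library, but this limit does not mark members whose reads stay level. Reads of Cyp2d22 (up to 537 per kilobase) were 1089, 1542, 650 and 334 in control livers 1 to 4, with an eRPKM of 97.8, 98.1, 94.5 and 93.5. Sex was read from Xist and the Y-linked Ddx3y: control livers 2 and 3, 3-day livers 3 and 4 and all 3 livers at 7 days were female (7 in all), and the others male, so sex and 7 days of YAP cannot be told apart without restricting the comparison to females. The row of mouse Yap1 lay between 13.9 and 21.1 eRPKM in all 11 livers and was not called (the table cannot separate a transgene copy), whereas the YAP target Ctgf ranged from 5.20 to 14.2 in controls, from 15.3 to 34.2 at 3 days and from 87.3 to 103 at 7 days. By the limma test described below, 4 of 8 hepatocyte markers (Ttr, Tat, Pck1 and Asgr1) were called lower at 7 days and none higher, and none of the 8 was at 0 in any liver. Their summed eRPKM was 1706 to 4553 in controls and 1278 to 1473 at 7 days. This sum includes the abundant Alb, Apoa1 and Apob, which were not called. Unscaled reads of Alb were 2417 to 3102 in controls and 2840 to 2934 at 7 days. Those of Apoa1 were 1078 to 1423 and 1471 to 1496, respectively. How far depth accounts for the lower sum was not tested. Of 5 Kupffer cell markers tested, 4 (Vsig4, Cd5l, Marco and Timd4) were called higher (summed eRPKM 157 to 337 in controls and 607 to 634 at 7 days), as were 4 of 6 markers of monocytes or recruited macrophages (Itgam, Ccr2, Cx3cr1 and Cd68, 72.0 to 130 and 271 to 341) and 5 of 5 of cycling cells (3.90 to 17.2 and 92.2 to 142). Of 6 endothelial markers 2 (Cdh5 and Lyve1) were higher (summed eRPKM 69.2 to 132 in controls and 169 to 203 at 7 days), of 6 cholangiocyte markers 1 (Krt7) was higher (42.7 to 53.2 and 67.7 to 123), of 5 T lymphocyte markers 1 (Cd4) was higher (2.92 to 6.80 and 4.60 to 8.81), of 6 stellate cell markers 1 (Reln) was lower (69.6 to 108 and 49.3 to 63.3), and none of 4 B lymphocyte markers was called (3.75 to 8.60 and 4.64 to 12.4). These counts are to be read against the 5.77% of all genes called lower and the 18.0% called higher at 7 days. The single calls among cholangiocyte and T lymphocyte markers stood near the latter share. All of these calls are over livers of both sexes. Among females alone Tat, Pck1, Asgr1, Vsig4, Cd5l and Cd4 were not called (limma adjusted p between 0.0103 and 0.0265). The other markers named as called, and those of cycling cells, kept their calls. In such bulk samples fewer hepatocytes and less P450 RNA per hepatocyte cannot be told apart, and the part of these marker differences in the falls described below was not tested.

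The members sit in clusters of related genes. On the mm9 assembly used by the authors, with GENCODE M1 coordinates, 58 of the 59 members had a position, all but Cyp2d13. The 12 kept Cyp2c genes lie on chromosome 19, from the start of Cyp2c55 at chr19:39081509-39117183 to the end of Cyp2c70 at chr19:40227843-40261823. The Cyp2d genes with a position lie on chromosome 15, the Cyp2a, Cyp2b, Cyp2f, Cyp2g and Cyp2t genes side by side on chromosome 7, the Cyp3a genes on chromosome 5, and the Cyp2j, Cyp4a and Cyp4b genes on chromosome 4. Coding sequences are nearly shared within some clusters. Cyp2a4 and Cyp2a5 were 98.5% identical over 1485 coding bases, Cyp2c40 and Cyp2c68 98.1%, Cyp3a25 and Cyp3a59 97.5%, and Cyp4a10 and Cyp4a32 97.2%. In all, 28 of 58 members with a coding sequence had another member at 90% identity or more, and the values of such genes are uncertain to the extent that the read counting could split reads between copies. Exons of 6 members overlap another gene, among them Cyp4f18 with Zfp961, Cyp4v3 with Klkb1 and Cyp2t4 with Egln2, and the counting was made without strand.

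RefSeq promoter sequences (GRCm38.p6) were at hand for 49 of the 59 members. Those below are the 250 bases before the annotated start, 5′ to 3′, of the 3 called members with the largest falls at 7 days among those with an entry (Cyp2d40, Cyp1a2 and Cyp2a5), of Cyp2a4, the near-copy of Cyp2a5, and of the only members that rose (Cyp4f18 and Cyp4f16). Capitals mark matches, on either strand, to 5 short motifs: the TEAD core GGAATG, through which YAP reaches DNA, the HNF4A core AAAGTCC, the HNF1 element GTTAAT, the AhR core GCGTG and the TATA box TATAAA.
Cyp2d40: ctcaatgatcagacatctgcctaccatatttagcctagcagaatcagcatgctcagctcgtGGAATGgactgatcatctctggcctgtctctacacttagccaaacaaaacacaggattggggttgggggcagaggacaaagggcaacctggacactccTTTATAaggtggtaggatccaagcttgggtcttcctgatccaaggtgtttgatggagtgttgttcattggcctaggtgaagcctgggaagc
Cyp1a2: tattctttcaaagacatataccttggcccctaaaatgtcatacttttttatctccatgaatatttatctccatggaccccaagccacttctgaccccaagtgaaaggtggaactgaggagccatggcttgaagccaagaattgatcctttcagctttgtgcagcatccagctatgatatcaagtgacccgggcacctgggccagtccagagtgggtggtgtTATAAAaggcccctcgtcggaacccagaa
Cyp2a5: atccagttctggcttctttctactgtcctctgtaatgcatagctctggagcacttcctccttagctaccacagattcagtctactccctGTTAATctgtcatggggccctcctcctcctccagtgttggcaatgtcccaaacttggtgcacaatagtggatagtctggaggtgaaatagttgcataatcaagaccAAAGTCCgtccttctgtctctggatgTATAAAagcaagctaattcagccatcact
Cyp2a4: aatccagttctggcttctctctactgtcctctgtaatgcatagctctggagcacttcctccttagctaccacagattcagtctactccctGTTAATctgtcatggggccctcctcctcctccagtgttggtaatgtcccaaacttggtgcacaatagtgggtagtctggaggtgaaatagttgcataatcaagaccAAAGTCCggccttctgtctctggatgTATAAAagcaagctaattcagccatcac
Cyp4f18: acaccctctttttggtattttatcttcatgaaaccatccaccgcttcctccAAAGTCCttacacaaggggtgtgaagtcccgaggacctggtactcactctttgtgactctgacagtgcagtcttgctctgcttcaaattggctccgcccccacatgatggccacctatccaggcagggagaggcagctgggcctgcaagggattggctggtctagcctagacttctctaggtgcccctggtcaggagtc
Cyp4f16: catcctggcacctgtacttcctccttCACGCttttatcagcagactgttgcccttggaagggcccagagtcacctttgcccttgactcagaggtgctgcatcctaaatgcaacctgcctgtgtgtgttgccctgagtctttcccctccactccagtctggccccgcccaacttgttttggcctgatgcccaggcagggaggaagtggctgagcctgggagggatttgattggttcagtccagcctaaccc
They lie at chr15:82764123-82764372 (minus strand), chr9:57683656-57683905 (minus), chr7:26835089-26835338 (plus), chr7:26306942-26307191 (plus), chr8:72009627-72009876 (minus) and chr17:32536307-32536556 (plus) on GRCm38.p6. Cyp1a2 and Cyp2a5 hold a TATA box that begins 29 bases before the start, Cyp2a5 an HNF4A core at 55 bases and an HNF1 element at 161 bases, and Cyp2d40 a TEAD core at 189 bases before the start. Cyp2a4 shares the same 3 matches with Cyp2a5, and their 250 bases were 98.4% identical. Over the 49 member promoters a TATA box match was present in 22 (44.9%), against 13.0% of 27025 promoters of all genes of the same length. An HNF4A core was present in 12 (24.5% against 3.65%), an HNF1 element in 7 (14.3% against 6.52%), a TEAD core in 6 (12.2% against 12.6%) and an AhR core in 8 (16.3% against 28.2%). Among the 19 members with an entry that fell at 7 days, 3 held an HNF4A core and 3 a TEAD core, and among the 28 that were not called 8 and 3 did. Related members can share a match. Besides Cyp2a4 and Cyp2a5, Cyp2b9 and Cyp2b13 both held an HNF4A core 24 bases and a TEAD core 101 bases before the start. The member promoters are therefore not independent of each other, which limits the reading of their shares against those of all genes. These matches are descriptions of letters, not of binding.

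In control livers the highest mean level was that of Cyp2e1, which oxidises ethanol and acetaminophen, at 446 ± 237 (SD, n = 4) eRPKM. Cyp3a11, the main drug-metabolising P450 of mouse liver, followed at 365 ± 215 (SD, n = 4), and Cyp2c29, an arachidonic acid epoxygenase, at 287 ± 144 (SD, n = 4). Each of these means differed from the next in rank by less than the SD of either. At the other end Cyp1b1, Cyp2j8, Cyp4f18 and Cyp2t4 had control means between 0.452 and 0.816 eRPKM. The summed eRPKM of the 59 members was 4152, 4737, 6340 and 7517 in controls, 5169, 4289, 4825 and 5279 at 3 days, and 2553, 2059 and 2277 at 7 days. All 7-day livers lay below all others, and the share of reads on the members lay between 0.899% and 1.59% in controls, between 0.926% and 1.14% at 3 days and between 0.448% and 0.550% at 7 days. Both measures are scaled to depth, and the share was highest in control liver 4, the shallowest library. Unscaled reads on the members were 34855, 56025, 32292 and 19624 in controls and 29365, 26546 and 25793 at 7 days, and these groups overlapped. In the heat map of levels the rows of Cyp1a2, Cyp2a5 and Cyp2d40 are darker in the 7-day columns than in all others, whereas the shade of Cyp2a12 changes little.

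**Figure D1:**
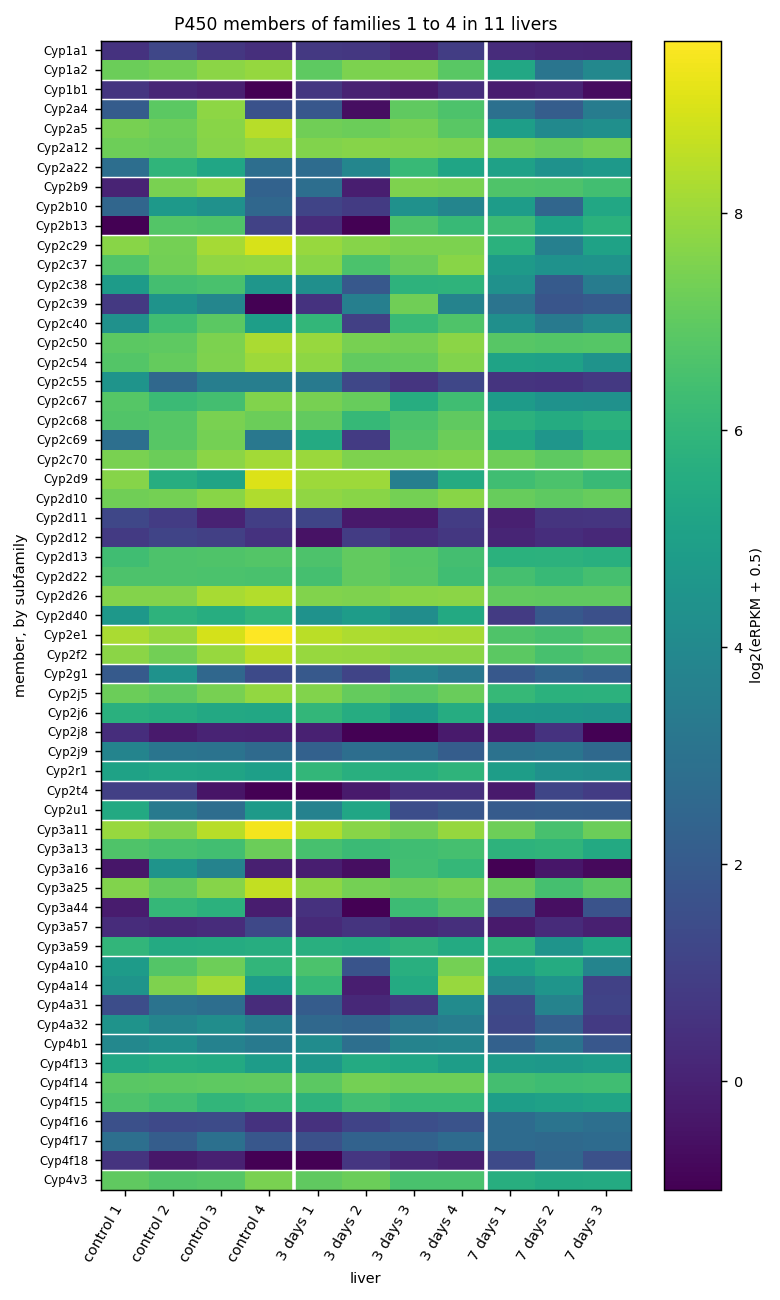
Level of each of the 59 members (rows, by subfamily) in each of the 11 livers (columns: 4 controls, 4 after 3 days and 3 after 7 days) as log2(eRPKM + 0.5), with the colour scale at the right. Cyp2d40 and Cyp2a5 darken in the 3 columns at 7 days, and Cyp2b9, Cyp2b13, Cyp3a16 and Cyp3a44 alternate between high and low columns among the controls and 3-day livers.

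After 3 days of YAP induction no member passed the test, which called a gene where limma gave an adjusted p under 0.01 and where the log2 fold change exceeded 0.5 in size (0 of 59 higher, against 0.0421% of the 14244 genes tested, and 0 of 59 lower, against 0.0%). At an unadjusted p under 0.05, 5 members (8.47%) were counted, against 12.1% of all genes tested. The median log2 fold change of the members was -0.18, that of all genes 0.02, and 43 members were below 0. Cyp2r1, a vitamin D hydroxylase, came closest. Its eRPKM was 33.4, 38.1, 36.2 and 31.0 in controls and 63.9, 50.4, 48.8 and 57.9 at 3 days. It was the only member whose 3-day livers all lay above all controls (1.69% of members, against 3.38% of genes), with a log2 fold change of 0.66 (SE 0.16) and a limma adjusted p of 0.105. No member had all 3-day livers below all controls (0.0%, against 2.25% of genes). Cyp2c55 had the lowest log2 fold change, -1.91 (SE 0.52), with a limma adjusted p of 0.142. It was called lower when 3-day liver 1, the one high liver of its group at 9.70 eRPKM, was left out (-2.48, limma adjusted p = 0.00834).

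After 7 days 21 of the 59 members fell and 2 rose against control by limma. The fallen members made up 35.6%, against 5.77% of all genes tested, and the risen ones 3.39%, against 18.0%. The median log2 fold change of the members was -0.86, while that of all genes was 0.26. For 33 members every 7-day liver lay below every control (55.9%, against 13.3% of genes), and for 2 every 7-day liver lay above (3.39%, against 36.7%). Falls were spread over the subfamilies Cyp1a (1 of 2 members), Cyp2a (1 of 4), Cyp2c (6 of 12), Cyp2d (3 of 8), Cyp2j (2 of 4), Cyp3a (1 of 7), Cyp4a (1 of 4) and Cyp4f (2 of 6) and the single members Cyp2e1, Cyp2f2, Cyp4b1 and Cyp4v3, with none in Cyp2b (0 of 3). The plot of fold changes shows that they were unequal between neighbours in a cluster. The 21 fallen members ranged from -0.59 for Cyp4f14 to -4.06 for Cyp2d40, and the control mean was at least 4 times the 7-day mean in 10 of them. The median log2 fold change of all genes was 0.26 with the deposited scaling, 0.02 with median-ratio size factors and -0.06 with quantile normalization. Under the last 2 scalings 21 and 19 of the 21 falls were called, respectively.

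**Figure D2:**
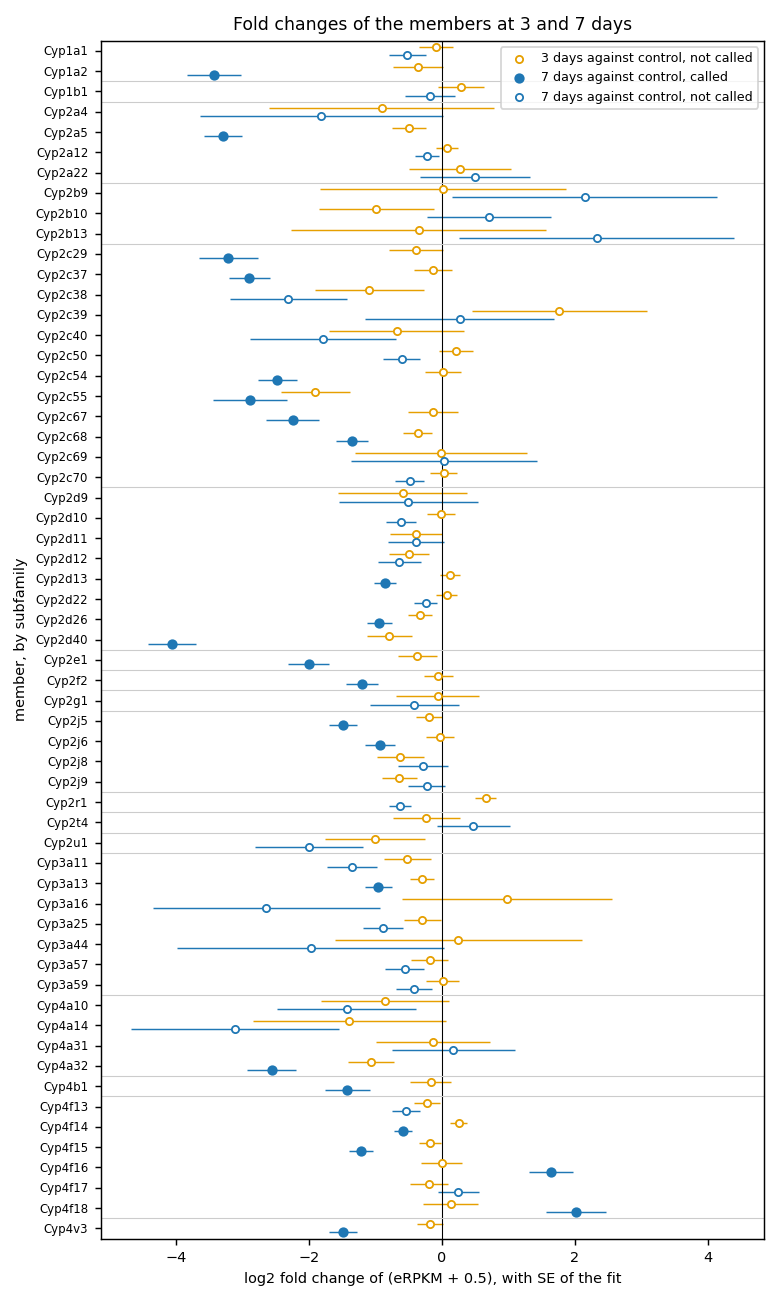
Log2 fold change of (eRPKM + 0.5) against control for each of the 59 members at 3 days (orange) and 7 days (blue), with the SE of the limma fit as bars and filled points for called members. No 3-day point is filled, 21 of the 7-day points are filled to the left of 0 and 2 (Cyp4f16 and Cyp4f18) to the right, and the widest bars belong to members that varied most within groups, such as Cyp2b9, Cyp2b13 and Cyp4a14.

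In family 1, Cyp1a2, which oxidises caffeine and aromatic amines, was the only 1 of 3 members that fell. Its eRPKM was 146, 166, 216 and 242 in controls, 122, 179, 185 and 116 at 3 days and 40.5, 8.10 and 14.9 at 7 days. The groups did not overlap, with the lowest control far above the highest 7-day liver, and the log2 fold change was -3.43 (SE 0.40) with a limma adjusted p of 4.77e-05. Cyp1a1, the best known target of the aryl hydrocarbon receptor Ahr, was 0.983, 1.90, 1.16 and 0.836 in controls, 1.18, 1.15, 0.663 and 1.42 at 3 days and 0.78, 0.644 and 0.59 at 7 days. All of its 7-day livers lay below all controls, but at these low levels, with 3 to 30 reads per library, the change of -0.52 (SE 0.27) was not called (limma adjusted p = 0.154). Cyp1b1, which is mainly known from tissues other than liver, stayed between 0 and 1.12 eRPKM in all livers and was not called (log2 fold change -0.17, SE 0.38).

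In subfamily Cyp2a Cyp2a5, which hydroxylates coumarin and nicotine, fell. Its eRPKM was 169.7, 149.8, 209.6 and 346 in controls, 158, 146, 172 and 117 at 3 days and 30.3, 15.6 and 18.9 at 7 days. Every 7-day liver was far below every control and 3-day liver, with a log2 fold change of -3.29 (SE 0.28) and a limma adjusted p of 6.18e-06, the lowest among the members. Cyp2a12, a steroid hydroxylase, was 152, 145, 203 and 247 in controls and 161, 144 and 166 at 7 days, and the groups overlapped (log2 fold change -0.22, SE 0.18, limma adjusted p = 0.371). Cyp2a4 and Cyp2a22 differed between the sexes and are described with the sex comparison.

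Subfamily Cyp2c held 6 fallen members of 12 and none that rose. Cyp2c29 had an eRPKM of 210.1, 166, 282 and 492 in controls, 248, 200.5, 179.5 and 183 at 3 days and 54.4, 11.7 and 34.0 at 7 days. All 7-day livers were below all others, with a log2 fold change of -3.21 (SE 0.44) and a limma adjusted p of 0.000136. Cyp2c37 (-2.90), Cyp2c54 (-2.48), Cyp2c55 (-2.89), Cyp2c67 (-2.24) and Cyp2c68 (-1.36) were the other log2 fold changes called, with limma adjusted p from 2.42e-05 to 0.00156. The other 6 members of the cluster were not called. Cyp2c50, whose coding sequence is 96.1% identical to that of Cyp2c37, was 119.7, 123, 181 and 299.8 in controls and 113, 108 and 111 at 7 days, so that every 7-day liver lay below every control. Its log2 fold change of -0.60 (SE 0.28) was not called (limma adjusted p = 0.108), and its difference from that of Cyp2c37 was not tested. Cyp2c70, which makes the muricholic acids of mouse bile, was 174, 147, 217 and 279 in controls and 152, 123 and 153 at 7 days. These groups overlapped, and it was not called either (log2 fold change -0.48, SE 0.22, limma adjusted p = 0.0945). Cyp2c38, Cyp2c39, Cyp2c40 and Cyp2c69 varied widely within groups, as in the 3-day livers, where Cyp2c69 ranged from 1.31 to 149 eRPKM. Their log2 fold changes over all livers lay between -2.31 for Cyp2c38 and 0.27 for Cyp2c39, and none of them was called.

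Subfamily Cyp2d held the lowest log2 fold change in the fit over all livers. Cyp2d40 had an eRPKM of 24.6, 56.2, 47.5 and 61.9 in controls, 20.5, 28.1, 17.9 and 42.6 at 3 days and 1.31, 3.26 and 2.49 at 7 days. The control mean was 20.2 times the 7-day mean, with a log2 fold change of -4.06 (SE 0.36) and a limma adjusted p of 7.70e-06, on 8 to 351 reads per library. Among females its log2 fold change was -4.26 (SE 0.40). Cyp2d26 fell from 255 ± 68.6 (SD, n = 4) eRPKM in controls to 129 ± 2.97 (SD, n = 3) at 7 days (log2 fold change -0.94, SE 0.19, limma adjusted p = 0.00209). Cyp2d13 also fell, with a log2 fold change of -0.86 (SE 0.16). Cyp2d22 (-0.24), Cyp2d10 (-0.61), Cyp2d11 (-0.39) and Cyp2d12 (-0.64) were not called, and Cyp2d9 differed by sex. Cyp2d26 lost its call with quantile normalization (log2 fold change -0.39).

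Cyp2e1 had an eRPKM of 301, 239, 474 and 769 in controls, 363, 314, 294 and 282 at 3 days and 102, 91.0 and 108 at 7 days. Its 7-day livers lay close together and below all others, with a log2 fold change of -2.00 (SE 0.31) and a limma adjusted p of 0.000329. Cyp2f2, known for the bioactivation of naphthalene and held by hepatocytes near the portal vein, was 213, 159, 249 and 371 in controls, 250.5, 237, 212 and 213 at 3 days and 119.7, 89.5 and 101 at 7 days. It fell by less, with a log2 fold change of -1.20 (SE 0.24) and a limma adjusted p of 0.0017. Of 7 members listed as pericentral (Cyp2e1, Cyp1a2, Cyp2a5, Cyp2c29, Cyp2c37, Cyp2c50 and Cyp2c54), 6 fell (against 35.6% of the members and 5.77% of all genes), with a median log2 fold change of -2.90 against 0.26 over all genes. Cyp2f2, at -1.20, was the only member listed as periportal, and the difference between the zones was not tested. Both lists were chosen with earlier results of these data known, so these counts are descriptive.

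In subfamily Cyp2j the arachidonic acid epoxygenase Cyp2j5 fell. Its eRPKM was 149, 128, 169.7 and 232 in controls, 189, 136, 118 and 142 at 3 days and 67.3, 53.7 and 56.1 at 7 days. The groups did not overlap, and the log2 fold change was -1.49 (SE 0.21) with a limma adjusted p of 0.000179. Cyp2j6 fell from 51.9, 47.3, 41.8 and 40.4 in controls to 24.3, 23.8 and 22.2 at 7 days (log2 fold change -0.93, SE 0.23, limma adjusted p = 0.00618). Cyp2j9 (-0.23) and Cyp2j8 (-0.28) were not called. Cyp2g1, an olfactory P450, and Cyp2t4 were not called at 7 days, with log2 fold changes of -0.41 (SE 0.67) and 0.47 (SE 0.55). Both were low, and Cyp2g1 was highest in control liver 2, at 20.4 eRPKM. Cyp2r1, after its 3-day values, was 29.1, 20.2 and 18.6 at 7 days, below all controls and all 3-day livers. Against control its log2 fold change was -0.63 (SE 0.17) (limma adjusted p = 0.012), which was not called.

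Among the Cyp3a genes Cyp3a13 was the only one called over all livers. Its eRPKM was 100.3, 90.1, 83.7 and 148 in controls, 91.3, 74.2, 80.7 and 88.7 at 3 days and 56.3, 60.6 and 43.2 at 7 days, with a log2 fold change of -0.95 (SE 0.20) and a limma adjusted p of 0.00229. Cyp3a11, the classical target of PXR, was 249, 191, 349 and 673 in controls, 333, 209, 161 and 238 at 3 days and 153, 90.1 and 146 at 7 days. All 7-day livers were below all controls, but control liver 4, the shallowest library, stood well above the others, and the log2 fold change of -1.36 (SE 0.38) did not pass (limma adjusted p = 0.0128). Cyp3a25 (-0.88), Cyp3a59 (-0.42) and Cyp3a57 (-0.56) were not called either.

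**Figure D3:**
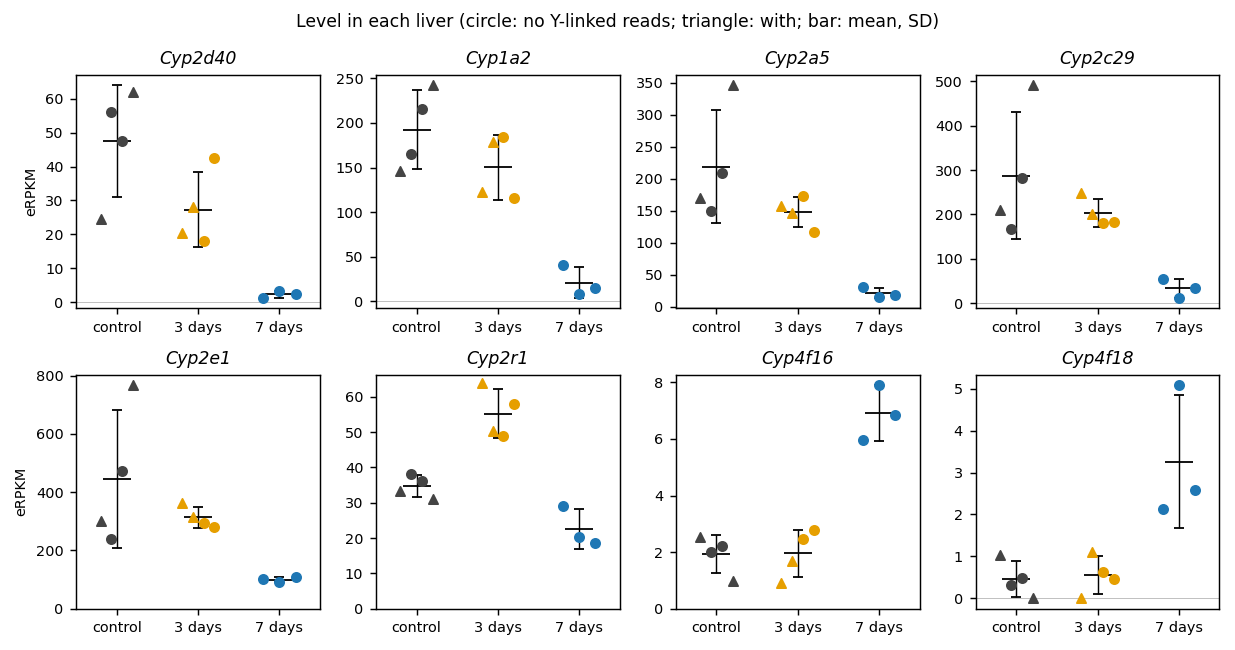
eRPKM of 8 members in each liver (points; circles are female livers without Y-linked reads, triangles male livers), with the mean and SD of each group as black bars. Cyp2d40, Cyp1a2, Cyp2a5, Cyp2c29 and Cyp2e1 are lowest in all 3 livers at 7 days, Cyp2r1 is highest in the 4 livers at 3 days and lowest at 7 days, and Cyp4f16 and Cyp4f18 are highest at 7 days.

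Family 4 moved in both directions. Cyp4a10 and Cyp4a14, fatty acid hydroxylases induced through Ppara, varied from liver to liver. Cyp4a14 had an eRPKM of 21.9, 186, 276 and 28.0 in controls, 67.3, 0.429, 43.7 and 246 at 3 days and 13.9, 22.3 and 1.54 at 7 days. Cyp4a10 had an eRPKM of 28.0, 109, 153 and 62.9 in controls, 96.2, 2.89, 51.0 and 166 at 3 days and 32.0, 45.8 and 13.3 at 7 days. Control livers 2 and 3 and 3-day liver 4 were high for both genes and 3-day liver 2 was low for both, and neither was called over all livers (log2 fold changes -3.11, SE 1.56 and -1.43, SE 1.05). Cyp4a32, 97.2% identical to Cyp4a10 in its coding sequence, was 21.3, 13.7, 17.7 and 10.5 in controls, 5.52, 4.75, 8.54 and 10.9 at 3 days and 1.89, 4.09 and 1.24 at 7 days. It fell, with a log2 fold change of -2.56 (SE 0.37) and a limma adjusted p of 0.000177, on 13 to 164 reads per library. Cyp4a31 was not called (0.17).

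Cyp4v3, a fatty acid omega-hydroxylase, was 129, 104, 112 and 176 in controls, 129, 146, 92.4 and 92.2 at 3 days and 50.0, 42.4 and 44.1 at 7 days eRPKM, and it fell without overlap (log2 fold change -1.48, SE 0.21, limma adjusted p = 0.000177). Cyp4b1, best known from lung, fell from 14.0 ± 3.79 (SD, n = 4) in controls to 5.08 ± 2.37 (SD, n = 3) at 7 days (log2 fold change -1.43, SE 0.34, limma adjusted p = 0.00538). Its call was lost under 9 of 26 alternatives, with log2 fold changes between -1.16 and -1.76 and limma adjusted p of up to 0.0342 in those 9.

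Subfamily Cyp4f, whose members hydroxylate leukotriene B4 and related eicosanoids, held the only members that rose. Cyp4f16 had an eRPKM of 2.52, 2.01, 2.21 and 0.982 in controls, 0.922, 1.69, 2.45 and 2.78 at 3 days and 5.96, 7.92 and 6.86 at 7 days. All 7-day livers were above all others, with a log2 fold change of 1.65 (SE 0.33) and a limma adjusted p of 0.00194. Cyp4f18, known from neutrophils and other myeloid cells, was 1.02, 0.311, 0.474 and 0 in controls, 0, 1.10, 0.62 and 0.464 at 3 days and 2.13, 5.08 and 2.58 at 7 days, with a log2 fold change of 2.02 (SE 0.45) and a limma adjusted p of 0.00364. Both were low, with 3 to 115 reads per library for Cyp4f16 and 0 to 53 for Cyp4f18. Summed markers of Kupffer cells and of monocytes or recruited macrophages were higher in the same 7-day livers (157 to 337 against 607 to 634 eRPKM, and 72.0 to 130 against 271 to 341), and their part in the rise of Cyp4f18 and Cyp4f16 was not tested. With log2 depth as a covariate neither was called (log2 fold changes 1.17 for Cyp4f16 and 1.42 for Cyp4f18). In the opposite direction, the hepatic leukotriene hydroxylases Cyp4f14 and Cyp4f15 fell. Cyp4f15 was 97.9, 82.4, 62.9 and 69.5 in controls, 57.2, 82.1, 68.5 and 67.0 at 3 days and 30.0, 32.7 and 36.1 at 7 days, with a log2 fold change of -1.22 (SE 0.18) and a limma adjusted p of 0.000187. Cyp4f14 was 116, 121, 125 and 127 in controls, 119, 163, 153 and 152 at 3 days and 84.8, 78.2 and 81.1 at 7 days. Its 7-day livers were below all others, with a log2 fold change of -0.59 (SE 0.14) and a limma adjusted p of 0.00536. The call of Cyp4f14 was lost under 12 of 26 alternatives, with a log2 fold change of -0.26 (limma adjusted p = 0.204) with quantile normalization and between -0.54 and -0.62 in the other 11. Cyp4f13 (-0.54) and Cyp4f17 (0.25) were not called.

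Between 3 and 7 days of induction 18 members fell (30.5%, against 5.31% of genes) and 2 rose (3.39%, against 14.0%), with a median log2 fold change of -0.82 against 0.26 over all genes. For 26 members every 7-day liver lay below every 3-day liver (44.1%, against 13.8% of genes). For 2 members every 7-day liver lay above every 3-day liver (3.39%, against 31.3%). This comparison shares the 7-day livers with the one against control, so the 2 sets of calls are not independent. The 3-day group had also received doxycycline for fewer days than the 7-day livers and the controls, and it held both sexes. Length of induction, days on the drug and sex cannot be told apart in this comparison. The members that rose were Cyp4f16 (log2 fold change 1.65, SE 0.33) and Cyp4f18 (1.88, SE 0.45). Cyp2r1, which was not called against control, fell against the 3-day livers (log2 fold change -1.29, SE 0.17, limma adjusted p = 0.000146). The log2 fold changes of Cyp2c55 (-0.98), Cyp2d26 (-0.61), Cyp3a13 (-0.66) and Cyp4b1 (-1.26), which fell against control, were not called here. Among the called members, the largest log2 fold changes from 3 to 7 days were those of Cyp2d40 (-3.27, SE 0.36), Cyp1a2 (-3.07, SE 0.40), Cyp2c29 (-2.82, SE 0.44) and Cyp2a5 (-2.79, SE 0.28).

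Because all 7-day livers were female, the members were compared between sexes in the 8 control and 3-day livers, with group as a covariate. Of the 59 members 7 were higher in females (11.9%, against 0.232% of genes) and 2 lower (3.39%, against 0.161%). The members higher in females were Cyp2b13 (log2 difference 6.67, SE 0.43), Cyp3a44 (6.42, SE 0.33), Cyp2b9 (6.30, SE 0.60), Cyp2a4 (5.83, SE 0.46), Cyp3a16 (5.46, SE 0.44), Cyp2a22 (2.57, SE 0.29) and Cyp2b10 (2.56, SE 0.27). Cyp3a16 passed the level filter only through the female control and 3-day livers, so its place here and among the falls in females is not independent of the filter. Lower in females were Cyp2d9, a testosterone hydroxylase of males (-3.21, SE 0.41, limma adjusted p = 0.00408), and Cyp2u1, a fatty acid hydroxylase (-2.43, SE 0.35, limma adjusted p = 0.0086). When genes of all levels were kept in the fit, the log2 differences of these 9 members were the same, Cyp3a44 was called (limma adjusted p = 0.00708), and the other 8 had limma adjusted p between 0.022 and 0.242.

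Among the 7 female livers alone, 25 members were lower at 7 days than in the 2 female controls (42.4%, against 4.25% of genes) and 2 were higher (3.39%, against 10.7%). Of the 21 members that fell over all livers, 17 were called in this smaller set. The other 4 were Cyp2f2, Cyp2j6, Cyp3a13 and Cyp4f14, whose log2 fold changes among females were -0.95, -0.91, -0.71 and -0.60. In 8 members a fall was called among females only: Cyp3a44 (-5.02, SE 0.60), Cyp3a16 (-4.80, SE 0.31), Cyp4a14 (-4.70, SE 0.98), Cyp2a4 (-4.55, SE 0.38), Cyp2c38 (-3.21, SE 0.54), Cyp2c40 (-2.79, SE 0.31), Cyp2c69 (-2.01, SE 0.30) and Cyp2b9 (-1.08, SE 0.18). No member was called at 3 days among females (0 of 59 higher against 0.0491% of genes, and 0 lower against 0.00702%), where 3 members, or 5.08%, had an unadjusted p under 0.05. Between the female 3-day and 7-day livers 23 members fell (39.0%, against 2.82%) and 1 rose (1.69%, against 7.18%).

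The female-type members are best seen liver by liver, and since they were picked out with the same female controls, the sex difference and the fall are not independent. Cyp2a4 had an eRPKM of 3.77, 122, 222 and 2.71 in controls, 3.18, 0.156, 128 and 97.7 at 3 days and 6.97, 3.80 and 10.3 at 7 days. Both female controls and both female 3-day livers were at 97.7 eRPKM or more, all males were at 3.77 or less, and the female 7-day livers lay close to the males. Cyp3a16 had an eRPKM of 0.288, 21.8, 12.8 and 0.448 in controls, 0.421, 0.155, 84.1 and 66.4 at 3 days and 0, 0.283 and 0.106 at 7 days. Cyp3a44 had an eRPKM of 0.381, 66.8, 54.6 and 0.395 in controls, 0.928, 0, 75.2 and 106 at 3 days and 2.49, 0.166 and 2.79 at 7 days. Both were at or near the level of males in the 7-day females. Cyp2b9 was 0.531, 175, 226 and 4.55 in controls, 6.60, 0.427, 187 and 176 at 3 days and 101, 98.5 and 83.8 at 7 days, so that its 7-day livers lay between the females and the males of the other groups. The limma adjusted p among females was 0.000129 for Cyp2a4, 4.25e-05 for Cyp3a16, 0.000545 for Cyp3a44 and 0.00277 for Cyp2b9. Cyp2b13, at 75.8, 34.5 and 53.1 at 7 days, had a log2 fold change of -0.99 (SE 0.30) that was not called. Cyp2b10, the best known target of Nr1i3, was 28.5, 5.15 and 39.9 at 7 days against 5.11, 25.6, 20.2 and 5.31 in controls, and its log2 fold change was 0.71 (SE 0.93) over all livers and -0.31 (SE 0.69) among females, neither of them called. Leaving out 1 liver moved the first of these between 0.15 and 1.57. Of the 7 members on a list of P450 genes known as higher in female mouse liver, 6 were called lower at 7 days among females, all but Cyp2b13, against 4.25% of all genes. This count is descriptive, because the list was chosen with earlier results of these data known. It also includes Cyp3a16, which passed the level filter only through the female livers in which it was high.

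The male-type Cyp2d9 was not called. Its eRPKM was 203, 48.5, 35.9 and 515 in controls, 259, 259.8, 11.3 and 45.7 at 3 days and 81.3, 94.7 and 71.7 at 7 days. The 7-day females lay above all 4 females of the other groups and below all 4 males, and the log2 fold change among females was 0.97 (SE 0.47) (limma adjusted p = 0.158). Over all livers it had the opposite sign, -0.50 (SE 1.05). Cyp2u1 was 42.7, 9.41, 6.45 and 27.0 in controls, 12.3, 38.2, 2.32 and 3.06 at 3 days and 3.58, 3.89 and 3.73 at 7 days, with -0.97 (SE 0.27) among females (limma adjusted p = 0.0259). Neither change was called, and no male liver was measured at 7 days. Cyp2d9 is the only member on a list of 4 P450 genes known as higher in male mouse liver. Of the others, Cyp7b1 was called lower among females (-2.22, SE 0.32, limma adjusted p = 0.00132), while Cyp4a12a (limma adjusted p = 0.195) and Cyp4a12b (0.916) were not called.

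**Figure D4:**
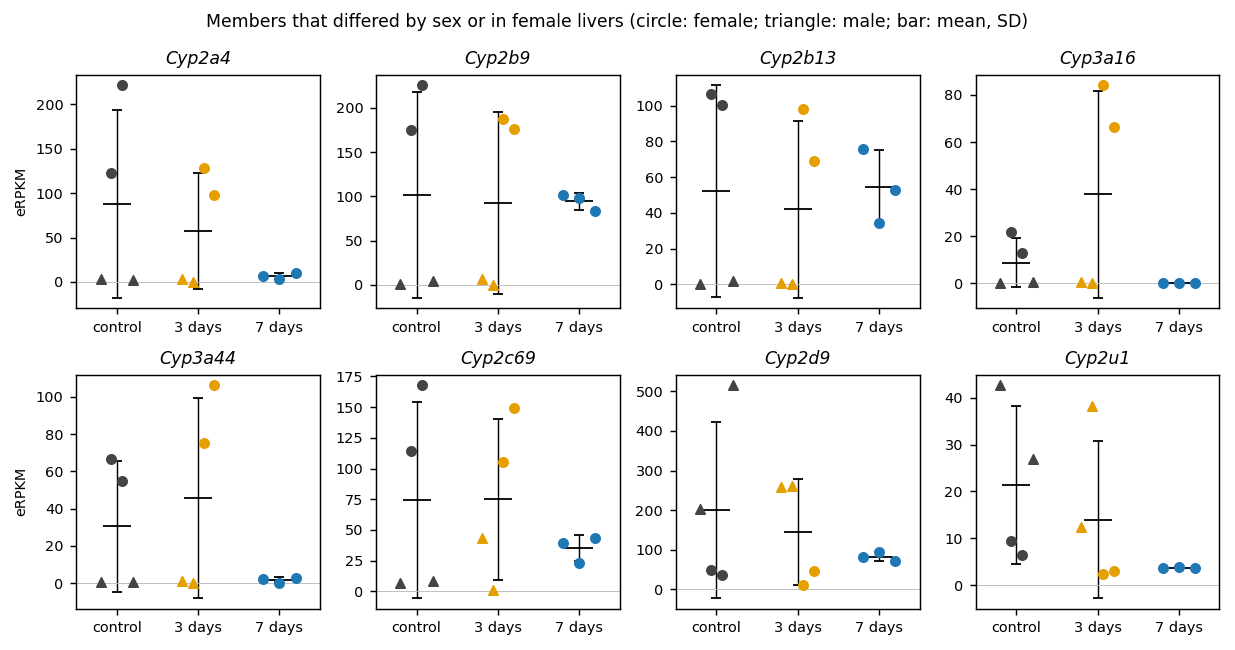
eRPKM of 8 members in each liver (circles female, triangles male), with the mean and SD of each group as black bars. For Cyp2a4, Cyp3a16 and Cyp3a44 the 3 female livers at 7 days sit near the males of the other groups and below the females. For Cyp2a4 all 3 lie above every male, and for Cyp3a44 7-day livers 1 and 3 do. For Cyp2b9 the 7-day livers sit between females and males, and for Cyp2c69 they lie below the other females. For Cyp2d9 and Cyp2u1 the males are highest.

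Reads of some abundant genes, such as Alb, grew little with depth, and the 7-day libraries were deep. Of the 21 fallen members 17 reached 300 reads per kilobase in some library and 4 did not, but this limit does not mark members whose reads stay level. Unscaled reads were therefore compared as well. For 10 members all 7-day livers had fewer unscaled reads than all controls (16.9%, against 0.899% of genes), and 9 of these were called lower, Cyp1a2, Cyp2a5, Cyp2c29, Cyp2c37, Cyp2c54, Cyp2c55, Cyp2c67, Cyp2d40 and Cyp2e1, while Cyp3a11 was not called. Reads of Cyp2e1 were 2098, 2353, 2042 and 1721 in controls and 975, 968 and 1029 at 7 days. Reads of Cyp2a5 were 1169, 1457, 892 and 766 in controls and 287, 164 and 177 at 7 days. Both were lower in every 7-day library than in control liver 4, whose depth was the lowest of all. Reads of Cyp2c50, which was not called, were 1410, 2047, 1318 and 1133 in controls and 1830, 1943 and 1783 at 7 days, and these groups overlapped. With log2 depth as a covariate 13 of the 21 members were called lower, and with only the 2 deepest controls 14 were, all of them among the 21. The shares of all genes called lower in these 2 fits were not counted, so these counts have no background beside them. The 8 members that lost their call with depth as a covariate had limma adjusted p between 0.0116 and 0.0348 there. Their log2 fold changes were -2.44 for Cyp2c55, -1.61 for Cyp2c67, -1.05 for Cyp2c68, -0.76 for Cyp2d13, -0.98 for Cyp2j6, -0.69 for Cyp3a13, -1.76 for Cyp4b1 and -0.59 for Cyp4f14, against -2.89, -2.24, -1.36, -0.86, -0.93, -0.95, -1.43 and -0.59 without it. Cyp2e1 remained called, with a log2 fold change of -1.23 in place of -2.00, as did Cyp2f2, with -0.68 in place of -1.20.

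**Figure D5:**
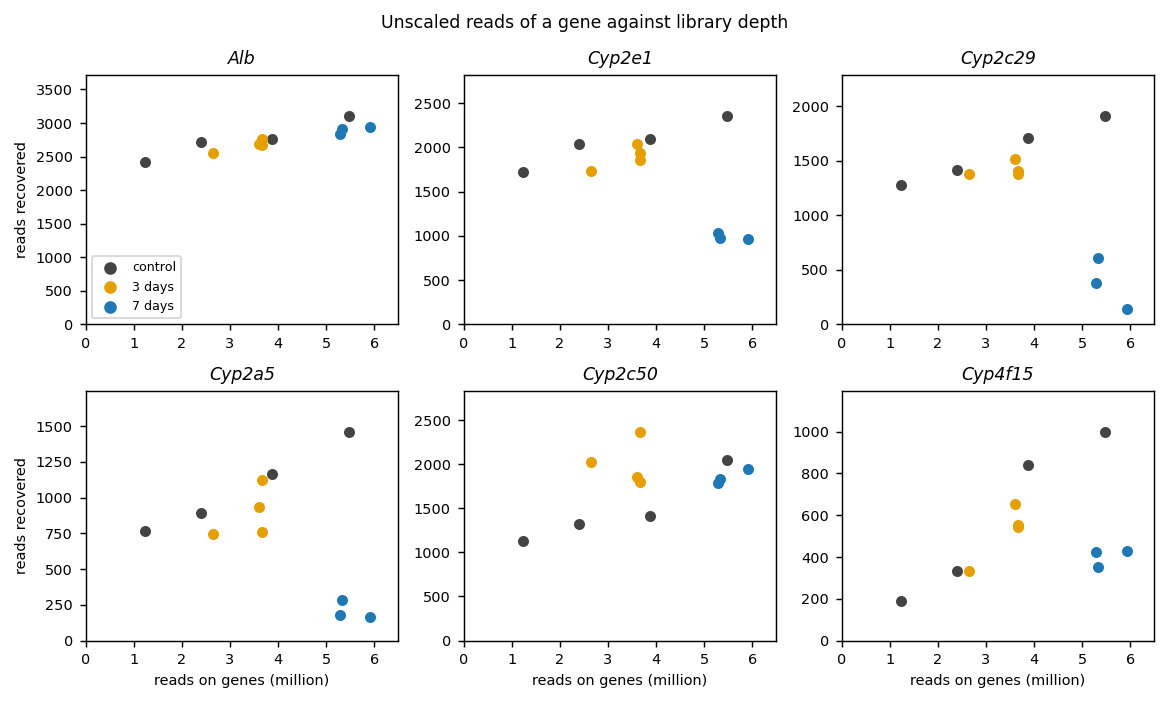
Unscaled reads recovered for a gene (y axis) against the reads on genes of the library (x axis) for Alb and 5 members, 1 point per liver, coloured by group. Alb stays between 2417 and 3102 reads at every depth, Cyp2e1, Cyp2c29 and Cyp2a5 fall below all controls in the 3 deep libraries at 7 days, and Cyp2c50 does not.

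Genes that serve the P450 enzymes were followed as lists, whose counts are to be read against the 5.77% of all genes called lower and the 18.0% called higher at 7 days. Of 6 genes of electron supply 1, the cytochrome b5 gene Cyb5b (-1.46, SE 0.17), was called lower at 7 days and none higher, with a median log2 fold change of -0.58. Por itself, the reductase, was 87.7, 112, 147 and 84.6 eRPKM in controls and 99.4, 74.0 and 113 at 7 days and was not called (-0.16, SE 0.33). Of 8 genes of heme synthesis 3 (Uros, Cpox and Fech) were lower and none higher (median -0.40), while Alas1, its first enzyme, did not pass (-0.69, SE 0.23, limma adjusted p = 0.0311). Of 4 genes of heme breakdown 2 were higher and none lower, Hmox1, the heme oxygenase (2.78, SE 0.26), and Blvra, a biliverdin reductase (0.73, SE 0.18). These counts are over all livers. Among females alone Cyb5b, Cpox and Hmox1 kept their calls. Uros, Fech and Blvra lost theirs (limma adjusted p = 0.0640, 0.103 and 0.0603). Of 21 regulators of P450 transcription 5 were lower at 7 days by limma, none was higher, and the median was -0.17. Besides Nr1i3 and Ppara these were the bile acid receptor Nr1h4 (-0.67, SE 0.13), its target Nr0b2 (-1.98, SE 0.34) and the growth hormone receptor Ghr (-1.94, SE 0.23). Genes outside the members were named where a list count of 5 or fewer was made up of them, after their values were seen.

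Of the receptors among these regulators, Nr1i3 had an eRPKM of 32.1, 64.9, 76.6 and 53.7 in controls, 28.6, 42.1, 50.8 and 52.3 at 3 days and 17.1, 11.8 and 15.7 at 7 days, with a log2 fold change of -1.84 (SE 0.28) at 7 days and a limma adjusted p of 0.000308. Ppara had an eRPKM of 118, 112, 128 and 129 in controls, 81.5, 109, 106 and 73.3 at 3 days and 41.8, 56.2 and 45.2 at 7 days, with a log2 fold change of -1.35 (SE 0.17) and a limma adjusted p of 7.02e-05. Both were lower in every 7-day liver than in every other liver, and both were also called among females (limma adjusted p = 0.000145 and 0.00203). Nr1i2 (-0.01, SE 0.20), Ahr (0.14, SE 0.19), Rxra (-0.17, SE 0.14) and Hnf4a (-0.35, SE 0.14) were not called. Of 6 targets of Ahr 1 was called lower, which was Cyp1a2, and 1 higher, the quinone reductase Nqo1 (1.68, SE 0.43), and of the 4 listed P450 targets of Ppara 1, Cyp4a32, was called lower. At 3 days none of the genes in these lists was called.

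The 16 genes with a member symbol that stayed under the level filter were low throughout. Their highest value in any library was 1.03 eRPKM, for Cyp2w1 in control liver 4 (on no more than 4 reads), and Cyp4f40 had no reads in any library. Nearest to the limit on the side of the members, Cyp2j8 and Cyp3a16 reached 0.5 eRPKM in 4 libraries each, and Cyp3a16 did so only in the 4 females of the control and 3-day groups, so that it passed the filter only through the livers in which it was high. Cyp2j8 did so in 3 controls, no 3-day liver and 1 liver at 7 days. Nearest on the other side, Cyp2b19, Cyp2b23, Cyp2c65 and Cyp2j13 reached 0.5 eRPKM in 2 libraries each.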

How the data were processed

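RNA sequencing of total RNA from 11 homogenized mouse livers (4 control, 4 after 3 days and 3 after 7 days of YAP induction) was re-analysed. The authors aligned reads without strand to mm9 with TopHat2 (version 2.0.8), counted reads on exons with featureCounts (1.4.5-p1) and deposited eRPKM, a form of RPKM scaled by reads on genes. How reads shared by near-identical copies were handled is not given in the sources used here. Columns from the authors' own DESeq2 test of 7 days against control (mean normalized signal, log2 fold change and adjusted p-value) are deposited in the same table and were not used. As eRPKM are not counts, the test was limma 3.58.1 in R 4.3.3 (empirical Bayes with a trend) on log2(eRPKM + 0.5), over 14244 of 20893 genes, those that reached 0.5 eRPKM in 3 libraries or more, with all groups in one fit and Benjamini-Hochberg adjustment over all genes tested. A fold change on this scale understates that of low genes. A call required that the adjusted p was under 0.01 and that the log2 fold change exceeded 0.5 in size. These are two-sided tests, and the p-values measure the spread between the numbered livers.

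Reads per gene were recovered from the steps of the eRPKM (99.99% of 177553 values above 0 lay within 0.1 of a whole read) and gave the depth per library, without Apob, for which no whole reads were found. limma-voom on these reads was 1 of the alternatives. Others were another pseudocount, filter, scaling, threshold or set of samples, depth or Xist as a covariate, the replicate number as a block, and leaving out each liver. The restriction to the 2 deepest controls was added after seeing the data. The procedure was tested on simulated data. Sex was taken from Xist and Ddx3y, as the labels do not give it.

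The members and lists were chosen with earlier results of these data known. Members given with values were, in each subfamily, the one with the highest control mean and the called ones with the largest fall and rise at 7 days, every member called at 3 days or called higher, and a set of well-known members (Cyp1a1, Cyp1a2, Cyp1b1, Cyp2a5, Cyp2b9, Cyp2b10, Cyp2c29, Cyp2d9, Cyp2e1, Cyp2f2, Cyp3a11, Cyp4a10 and Cyp4a14). All other members given with values were chosen after their values were seen. Coding sequences and positions came from GENCODE M1 on the mm9 assembly, and promoters from RefSeq. Tables, sequence comparisons and plots were made with Python 3.11.15, numpy 2.4.6, pandas 2.3.3, Biopython 1.88 and matplotlib 3.10.9.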

Additional observations from a re-analysis of the deposited data

Results flagged for a closer look

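Over the 59 members and the control and 3-day groups, 3 of 118 groups of 4 values held 1 liver that stood apart by more than the critical value of Dixon's ratio, its gap to the nearest other liver over the range of the group. Chance alone flags about 1 in 20 groups. Cyp2c40 was 1.48 eRPKM in 3-day liver 2 and 64.5, 70.8 and 102 in the others (ratio 0.885). Cyp2c70 was highest in 3-day liver 1 (ratio 0.906), and Cyp3a57 was highest in control liver 4, the shallowest library (ratio 0.871). None of these 3 members was called over all livers.

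The effects of 3 and 7 days of induction, each against control, differed for 20 members by the limma contrast of 7 against 3 days. Of these, 18 were lower at 7 days (30.5% of members, against 5.31% of genes). The other 2, Cyp4f16 and Cyp4f18, were higher (3.39%, against 14.0%). All 7-day livers were female, whereas the 3-day group held both sexes. Among females 23 members fell (39.0%, against 2.82%) and 1 rose (1.69%, against 7.18%).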

How the results depend on the processing

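The 21 members lower at 7 days than in controls numbered 14 to 25 under all alternatives but 1, and 13 with log2 depth as a covariate, all of them among the 21. Cyp1a2, Cyp2a5, Cyp2c29, Cyp2d40, Cyp2e1, Cyp2j5, Cyp4a32, Cyp4f15 and Cyp4v3 were called lower under each of the 26 alternatives. Leaving out 1 liver gave 16 to 21. The 2 members higher at 7 days numbered 1 with a pseudocount of 0.1, without a filter or with the replicate block, and 0 with quantile normalization, depth as a covariate or only the 2 deepest controls. Leaving out 1 liver gave 0 to 2: Cyp4f16 lost its call without 7-day liver 2 (adjusted p = 0.0118 by limma), and Cyp4f18 without control liver 4 or 7-day liver 2 or 3. Against 3 days, 2 higher members became 1 with a pseudocount of 0.1, without a filter, with median-ratio size factors, in a fit of only the 2 groups, with Xist as a covariate or in females only, and 0 with quantile normalization, the replicate block or depth as a covariate, and leaving out 1 liver gave 0 to 2. Leaving out 1 liver gave 0 to 1 members lower at 3 days. The 9 members that differed by sex became 1 (Cyp3a44) without a filter. The cause of these changes was not tested. Except for females only, the share of all genes called was not counted under the alternatives.

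Cyp3a13 lost its call without 7-day liver 3, Cyp2d26 without 7-day liver 2 or 3, and Cyp2f2 without 7-day liver 2. Among the members given with values by rule, signs turned for 6, none of them called over all livers: when 1 liver was left out, Cyp1b1 ranged from -0.49 to 0.061 (above 0 without control liver 1, and 0.028 without 7-day liver 3), Cyp2g1 from -0.81 to 0.19 (above 0 without control liver 2) and Cyp2d9 from -1.07 to 0.21 (above 0 without control liver 4) on the log2 scale. Cyp2t4 had -0.66 with depth and -0.37 with the 2 deepest controls, Cyp2b10 -0.30 with Xist, -0.31 in females and -0.00883 with depth, and Cyp2b9 -0.49 with Xist and -1.08 in females. Without 1 liver these last ranged from 0.15 to 1.57 (Cyp2b10) and from 0.69 to 3.29 (Cyp2b9). Cyp2d9 had 0.73 with Xist, 0.97 in females, 0.82 with depth and 0.0019 with quantile normalization.

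Same-numbered livers correlated at -0.22 to 0.27 in their deviations from the group means, so the numbers were not taken to pair them. With the replicate block 19 members were lower and 1 was higher at 7 days than in controls. Depth and 7 days of induction cannot be fully told apart, since 1 control reached the depth of the 7-day libraries, and members with few reads, such as Cyp4f18, are measured with the least precision.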
